A study of Mus musculus with 10 samples.

Results

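The genes of the mitochondrial respiratory chain and ATP synthase were followed in sorted brain macrophages of untreated mice, each library coming from 1 mouse. Members were the gene symbols of the deposited table that begin with Ndufa, Ndufb, Ndufc, Ndufs, Ndufv, Uqcr, Atp5 or Cox4 to Cox8, the symbols Sdha to Sdhd, and the protein-coding mitochondrial symbols beginning with mt-Nd, mt-Co, mt-Cytb or mt-Atp. Of 126 such symbols, 14 carrying -ps in their name and 4 without any count (Cox7b2, Cox8b, Cox8c and Ndufb11b) were dropped. That left 108 members, 95 encoded in the nucleus and 13 on mitochondrial DNA, of the 22778 genes with a count. The cells were CNS-associated macrophages of C57BL/6N mice aged 6 to 8 weeks. There were 4 mice homozygous for Mrc1-CreERT2 (Mrc1-CreERT2/Mrc1-CreERT2), 3 heterozygous mice and 3 wild-type mice, and no group was treated, so Cre was not induced. The allele carries a Cre recombinase fused to a modified oestrogen receptor domain, at Mrc1 by its name, and the wild-type mice lack it. The comparisons ask whether the allele itself alters the transcripts of these cells.

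The respiratory chain passes electrons from NADH and succinate to oxygen through complexes I to IV of the inner mitochondrial membrane. Complexes I, III and IV pump protons as they do so, and ATP synthase, called complex V, uses the returning protons to make ATP. Complex II is encoded wholly in the nucleus, whereas the other complexes combine nuclear subunits made in the cytosol with hydrophobic core subunits made from mitochondrial DNA inside the organelle. Mitochondrial DNA is transcribed as long precursors that are cut into individual messengers and ribosomal RNAs. In macrophages the balance between this machinery and glycolysis is known to shift with activation.

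The nuclear members comprised 37 complex I subunits, of which 7 were core subunits and 30 accessory ones, 8 complex I assembly factors (Ndufaf1 to Ndufaf8), 4 subunits of complex II, 8 of complex III, 17 of complex IV and 17 of complex V. Ndufa4, named as a complex I subunit, and its relative Ndufa4l2 were counted with complex IV, where NDUFA4 is known to sit. The other 4, Ndufa11b, Ndufb4c, Ndufs6b and Cox6c2, are paralogous symbols with few counts. The mitochondrial members were 7 subunits of complex I, 1 of complex III, 3 of complex IV and 2 of complex V. After genes with too few counts were removed, 89 nuclear and 8 mitochondrial members were tested. The 6 nuclear members left untested were Cox4i2, Ndufa4l2 and the paralogous symbols, none with more than 57 counts in a library. The 5 mitochondrial members left untested were mt-Co2, mt-Co3, mt-Atp6, mt-Atp8 and mt-Nd4l.

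Libraries held 22986972 to 36575446 counts. Mrc1, the gene of the targeted allele, was at a mean of 489 ± 48.6 CPM (SD, n = 4 homozygous mice), against 2153 ± 153 CPM in heterozygous mice and 3481 ± 365 CPM in wild-type mice (n = 3 each), where CPM is counts per 1000000 counts of the library. All 15 listed markers of CNS macrophages passed the count filter, and their summed level was 60367 to 69223 CPM in homozygous, 52461 to 64466 CPM in heterozygous and 51389 to 60080 CPM in wild-type libraries. The 10 listed microglial markers summed to 3049 to 4403 CPM in homozygous, 5171 to 7522 CPM in heterozygous and 4794 to 11001 CPM in wild-type libraries, and none of them was at 0 throughout. The 8 listed monocyte markers summed to 5.72 to 17.5 CPM in homozygous, 49.1 to 68.0 CPM in heterozygous and 75.7 to 200 CPM in wild-type libraries, with Chil3 and F10 at 0 in every library. Both lists were lower in every homozygous library than in any other, whereas the CNS macrophage sum was higher in every homozygous than in any wild-type library. The 8 listed neutrophil markers summed to 485 to 1052 CPM in homozygous, 225 to 390 CPM in heterozygous and 194 to 317 CPM in wild-type libraries, nearly all of it Mmp9, with S100a8, Ly6g and Retnlg at 0 in every library. The 9 listed B cell markers summed to 272 to 436 CPM in homozygous, 365 to 480 CPM in heterozygous and 503 to 772 CPM in wild-type libraries, and both allele carriers lay below wild type. Of the other 9 lists, 6 overlapped between all genotypes. T and NK cell markers, at 10.5 to 19.8 CPM in homozygous and 26.3 to 31.2 CPM in heterozygous libraries, and astrocyte markers, at 20.7 to 40.28 CPM in homozygous and 40.33 to 55.7 CPM in heterozygous libraries, were separate between those genotypes. Oligodendrocyte markers were separate between heterozygous (193 to 254 CPM) and wild-type libraries (270 to 331 CPM). The part of these cells in the results below was not tested. In bulk RNA, fewer cells of a type and less RNA per cell cannot be told apart.

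The most uneven feature of the mitochondrial members was not genotype but which of them had counts at all. The stretch of mitochondrial DNA from mt-Co2 to mt-Nd4l held few counts in every library. Summed over all 10 libraries, mt-Co2, a subunit of the copper centre of cytochrome oxidase, had 10 counts, and mt-Co3, another core subunit of that oxidase, had 2 counts. The ATP synthase subunit mt-Atp6 had 1 count, mt-Atp8 had 5 counts and the complex I subunit mt-Nd4l had 15 counts, which makes 33 counts for the 5 genes together. By contrast mt-Cytb had 19946 to 47281 counts per library, mt-Co1 had 17455 to 45676 and mt-Nd1 had 14231 to 31632. The complex I subunit mt-Nd3, which lies inside that stretch, had 54 to 186 counts per library.

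Each gene's annotated transcript was compared, as every window of 50 bases on both strands, with the transcripts of nuclear genes in GENCODE vM21, whose coordinates are on GRCm38. All windows of mt-Co2 occurred in a nuclear transcript, as did 99.9% of those of mt-Co3, 99.5% of mt-Atp6, 98.8% of mt-Nd4l and 98.0% of mt-Nd3. These are 4 of the 5 members that were near 0, with mt-Nd3 in addition. The fifth, mt-Atp8, shared no window, but it lies between mt-Co2 and mt-Atp6 and overlaps the start of mt-Atp6. Only annotated transcripts were searched, so a copy of mt-Atp8 outside them would not have been found. Among the abundant mitochondrial members, mt-Nd4 shared 62.2% of its windows, mt-Co1 51.1%, mt-Nd2 8.2% and mt-Nd5 7.6%, and mt-Nd1, mt-Nd6 and mt-Cytb shared none. The sources used here do not say how reads with several matching places were counted, and the part of this in the values was not tested.

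Of the copies, 7 annotated unprocessed pseudogenes stand in mitochondrial gene order on the minus strand of chromosome 1, at chr1:24611535-24616197 (GRCm38), a stretch of 4663 bases. They are Gm28439 (a copy of part of mt-Nd4), Gm10222 (mt-Nd4l), Gm28438 (mt-Nd3), Gm28437 (mt-Co3), Gm10925 (mt-Atp6), Gm28661 (mt-Co2) and Gm29216 (part of mt-Co1). Between Gm10925 and Gm28661 lie 233 bases that neither pseudogene covers. This gap was not itself compared with mt-Atp8. These 7 pseudogenes together held 210 counts over all 10 libraries, with at most 22 counts for any of them in a library. A further run of 3 unprocessed pseudogenes lies on the minus strand of chromosome 2, where Gm13341 shared 224 windows with mt-Co2, Gm13340 shared 411 with mt-Co1 and Gm13339 shared 81 with mt-Nd2. These had 136, 175 and 16 counts over the 10 libraries. The other annotated copies each shared at most 73 windows with a mitochondrial member. Against these values, the 5 mitochondrial genes near 0 held 33 counts.

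The following stretches of 100 bases compare a gene near 0, a gene with few counts and an abundant gene, each with an annotated nuclear copy below it. Capitals mark the bases at which gene and copy differ. For mt-Co2 and mt-Nd3 the copy is the one that shared most windows. For mt-Cytb, which shared no window, Gm11410 was chosen without ranking copies by likeness. The stretches are chrM:7303-7402 (plus strand) for mt-Co2 and chr1:24615176-24615275 (minus strand) for Gm28661, chrM:9459-9558 (plus) for mt-Nd3 and chr1:24613020-24613119 (minus) for Gm28438, and chrM:14667-14766 (plus) for mt-Cytb and chr4:80004511-80004610 (plus) for Gm11410, all on GRCm38 and read from GENCODE vM21 transcripts.
mt-Co2: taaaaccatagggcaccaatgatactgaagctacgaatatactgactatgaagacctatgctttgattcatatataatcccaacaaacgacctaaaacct
Gm28661: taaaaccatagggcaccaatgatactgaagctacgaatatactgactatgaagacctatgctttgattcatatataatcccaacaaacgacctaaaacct
mt-Nd3: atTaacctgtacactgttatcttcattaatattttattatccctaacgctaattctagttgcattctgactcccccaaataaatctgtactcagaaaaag
Gm28438: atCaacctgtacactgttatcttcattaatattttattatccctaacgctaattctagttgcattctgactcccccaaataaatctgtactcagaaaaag
mt-Cytb: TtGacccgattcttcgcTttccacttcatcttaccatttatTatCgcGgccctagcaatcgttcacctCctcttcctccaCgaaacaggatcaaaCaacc
Gm11410: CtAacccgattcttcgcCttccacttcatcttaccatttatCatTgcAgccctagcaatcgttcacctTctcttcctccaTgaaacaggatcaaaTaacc

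The first pair was identical in these 100 bases, and mt-Co2 and Gm28661 had no mismatch in 681 aligned bases. In the mt-Nd3 pair the stretch held 1 mismatch, which was the only one in 345 aligned bases. In the mt-Cytb pair the stretch held 9 mismatches, and 81 of 1142 aligned bases differed.

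**Figure D1:**
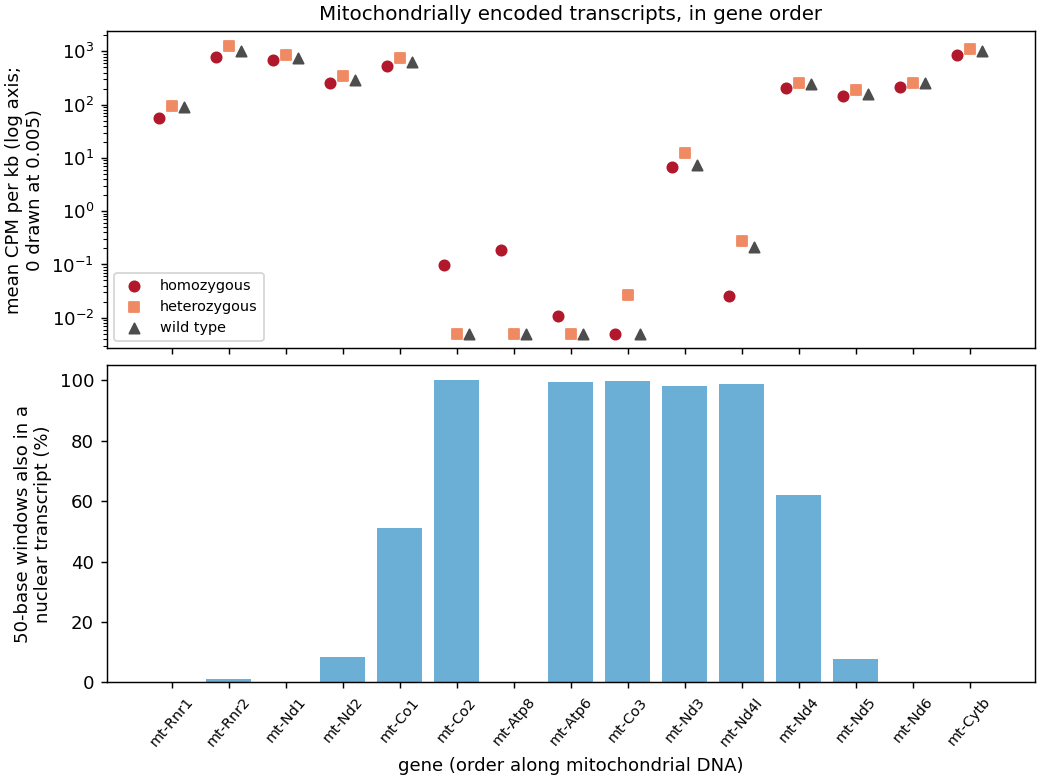
Upper panel: mean level of each mitochondrial transcript in CPM per kilobase (log axis) by genotype, in order along mitochondrial DNA. Lower panel: percent of its 50-base windows also found in a nuclear transcript. The run from mt-Co2 to mt-Nd4l lies far below its neighbours in all 3 genotypes, and all of it but mt-Atp8 shares 98.0% or more of its windows.

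Per length, 7 of the 8 tested mitochondrial members stood above the median of every nuclear complex given below, and mt-Nd3, at 8.69 CPM per kilobase, stood under that of each complex. Averaged over the 10 libraries, mt-Cytb, the cytochrome b core of complex III, was at 976 CPM per kilobase of annotated exon, mt-Nd1 at 754, the catalytic oxidase subunit mt-Co1 at 630, mt-Nd2 at 295, mt-Nd6 at 239, mt-Nd4 at 229 and mt-Nd5 at 160. These levels are per full length, although mt-Nd4 shared 62.2% and mt-Co1 51.1% of windows with nuclear transcripts, and mt-Cytb and mt-Nd1 none. The part of this in their order was not tested. The mitochondrial large ribosomal RNA mt-Rnr2 was at 1006 CPM per kilobase, and the small one, mt-Rnr1, at 78.1. Of the nuclear members, the complex IV subunits Cox8a (382.7 CPM per kilobase), Cox6a1 (363) and Cox6b1 (358) led. The library kit does not mark the strand. Reads of mt-Nd6, which lies on the other strand, therefore cannot be told apart from antisense transcripts of the opposite strand. The same holds for the overlapping ends of mt-Nd6 and mt-Nd5, at chrM:13552-13565. The ends of mt-Nd4l and mt-Nd4 also overlap, but on the same strand, so marking the strand would not separate them.

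The nuclear members of different complexes were found at like levels per length, with the assembly factors well below. The median was 50.7 CPM per kilobase over the 37 complex I subunits, 77.4 over the 4 of complex II, 69.4 over the 8 of complex III, 45.2 over the 17 of complex IV and 56.6 over 16 of complex V. Atp5o had no unambiguous match in GENCODE vM21 and so no length. The 8 complex I assembly factors had a median of 6.10 CPM per kilobase. Lengths are the union of all annotated exons, so a gene with long rare transcripts is placed too low. Atp5l, at 1.20 CPM per kilobase, has an annotated exon length of 6443 bases. Its counts before division by length, 2387 over the 10 libraries, were also the fewest of complex V, the next being Atp5g2 with 8495. Of its 50-base windows 7.5% occurred in transcripts of other genes, mainly the processed pseudogene Gm10221. The part of length and of copies in its low value was not tested. Of the 89 tested nuclear members 68 were above 50 CPM.

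**Figure D2:**
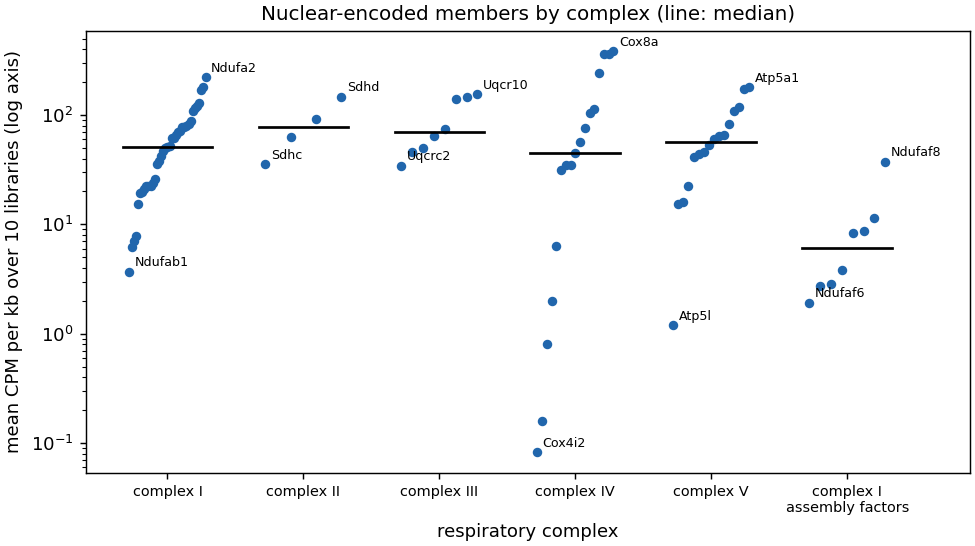
Mean level of each nuclear member over the 10 libraries, in CPM per kilobase of exon on a log axis, by complex; lines are medians and the highest and lowest member of each class are named. Complexes I to V have medians of 45.2 to 77.4, and the complex I assembly factors 6.10.

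In complex I, the NADH dehydrogenase, the most abundant nuclear members in CPM were the accessory subunits Ndufa13, Ndufb8 and Ndufc2. Ndufa13 was at 129, 144, 179 and 177 CPM in homozygous, 189, 170 and 182 CPM in heterozygous and 156, 142 and 155 CPM in wild-type libraries. All heterozygous values were above the wild-type ones, whereas the homozygous values spanned both. Ndufb8 lay between 147 and 187 CPM in all 10 libraries and Ndufc2 between 116 and 162 CPM. Of the assembly factors, which help build complex I without staying in it, Ndufaf8, Ndufaf7 and Ndufaf3 were the most abundant, at means of 31.1, 30.3 and 20.6 CPM.

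In complex II, succinate dehydrogenase, the flavoprotein Sdha was at 316, 453, 430 and 357 CPM in homozygous, 426, 368 and 331 CPM in heterozygous and 390.3, 351.0 and 395.2 CPM in wild-type libraries. The groups overlapped fully. The membrane anchor Sdhd and the iron-sulphur subunit Sdhb came next, at 140 to 225 CPM and 113 to 177 CPM over the 10 libraries.

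In complex III, the core protein Uqcrc1 was at 205, 281, 282 and 303 CPM in homozygous, 298, 247 and 213 CPM in heterozygous and 287, 255 and 279 CPM in wild-type libraries, again with full overlap. The small subunits Uqcrb and Uqcr11 followed, at 104 to 162 CPM and 65.1 to 116 CPM.

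In complex IV, cytochrome oxidase, Cox4i1 was the most abundant nuclear subunit. It was at 319, 361, 407 and 431 CPM in homozygous, 399, 405 and 375 CPM in heterozygous and 369.0, 339.3 and 381.2 CPM in wild-type libraries. Cox6a1 lay between 236 and 297 CPM and Cox6b1 between 197 and 293 CPM over the 10 libraries. In complex V the catalytic subunit Atp5b was at 684, 788, 750 and 837 CPM in homozygous, 701, 689 and 819 CPM in heterozygous and 614, 642 and 827 CPM in wild-type libraries. It was followed by Atp5a1, the alpha subunit of the same catalytic head, at 488 to 652 CPM and by Atp5c1, the gamma subunit of the central stalk, at 183 to 251 CPM, whose groups likewise overlapped.

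Several subunits exist as paired isoforms whose expression in mammals is known to depend on tissue, and the widely expressed partner prevailed in each. Cox4i2, the oxygen-responsive partner of Cox4i1, had 21 counts in heterozygous replicate 2 and 0 counts in the other 9 libraries. A count of 0 allows up to 3 counts, or 0.082 to 0.131 CPM depending on the library. Cox6a2, the heart and muscle partner of Cox6a1, had 0, 23, 61 and 30 counts in homozygous, 0, 0 and 0 counts in heterozygous and 0, 0 and 70 counts in wild-type libraries. Against 3 counts over the heterozygous group, Cox6a2 was at least 25.3-fold higher in homozygous than in heterozygous libraries and at least 21.7-fold lower in heterozygous than in wild-type libraries. It did not pass edgeR's test in either comparison (adjusted p = 1 and 0.791), and the wild-type counts all came from replicate 3.

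The other isoform pairs gave the same order. Cox7a1, the muscle partner of Cox7a2, had 0 to 142 counts per library, at most 4.28 CPM, against 87.1 to 128 CPM of Cox7a2 and 29.6 to 79.3 CPM of Cox7a2l. Cox6b2, the testis partner of Cox6b1, was at 2.52 to 12.9 CPM. Cox8a was at 201 to 261 CPM and Cox7b at 48.2 to 88.8 CPM, and their partners Cox8b, Cox8c and Cox7b2 had no count. Ndufa4 was at 118 to 164 CPM, whereas Ndufa4l2, which is known as a hypoxia-induced gene, had 57 counts in wild-type replicate 2 and 0 counts elsewhere. Of the 3 genes for the ring subunit c of ATP synthase, which encode the same mature protein, Atp5g3 was at 65.7 CPM per kilobase, Atp5g2 at 16.1 and Atp5g1 at 15.3.

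The nuclear members varied little among mice of a genotype. The coefficient of variation within genotypes had a median of 14.6% over the 89 tested nuclear members, against 20.5% over the 3524 tested genes above 50 CPM. It was 13.1% in complex II, 11.9% in complex IV and 11.6% in complex V, but 49.3% among the complex I assembly factors, none of which was above 50 CPM. Over the 8 mitochondrial members the median was 25.7%. The highest nuclear level was 1.61 times the lowest in the median gene, over the 85 members with counts in every library.

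The summed nuclear share of the library differed little between genotypes. Nuclear members held 0.890%, 0.993%, 1.03% and 0.990% of the counts in homozygous replicates 1 to 4, 0.972%, 0.985% and 0.948% in heterozygous replicates 1, 2 and 4, and 0.959%, 0.913% and 0.936% in wild-type replicates 1 to 3. The means were 0.976 ± 0.0607% in homozygous libraries (SD, n = 4), 0.968 ± 0.0190% in heterozygous and 0.936 ± 0.0230% in wild-type libraries (SD, n = 3 each), and the homozygous range enclosed all the others. Counting error was at most 0.00396 percentage points on either side (Wilson 95% interval), far below the spread between mice.

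The mitochondrial share varied more, and its highest values came from libraries of different genotypes. Mitochondrial members held 0.261%, 0.327%, 0.348% and 0.409% of the counts in homozygous, 0.316%, 0.523% and 0.492% in heterozygous and 0.519%, 0.353% and 0.306% in wild-type libraries. Heterozygous replicates 2 and 4 and wild-type replicate 1 stood above all other libraries. The means were 0.336 ± 0.0612% in homozygous libraries (SD, n = 4), 0.444 ± 0.112% in heterozygous and 0.392 ± 0.112% in wild-type libraries (SD, n = 3 each), and the groups overlapped. The ratio of mitochondrial to nuclear counts was 0.343 ± 0.0504 in homozygous libraries (SD, n = 4), 0.458 ± 0.115 in heterozygous and 0.418 ± 0.111 in wild-type libraries (SD, n = 3 each). Since near-empty members add almost nothing, these shares describe the counted mitochondrial genes only.

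**Figure D3:**
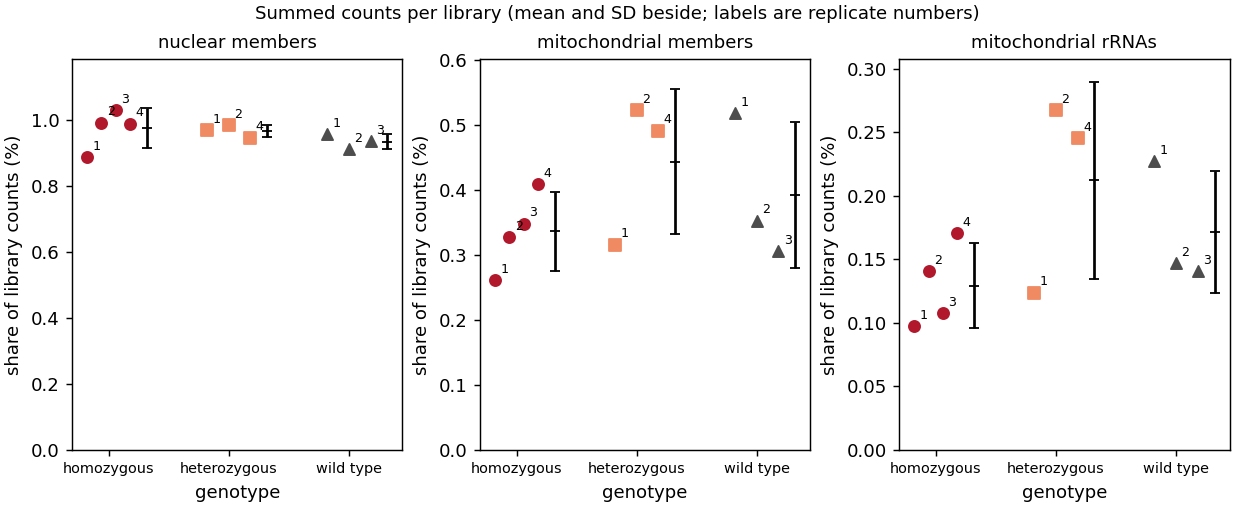
Summed counts of the nuclear members, the mitochondrial members and the 2 mitochondrial ribosomal RNAs as a percent of each library's counts, by genotype, with the mean and SD beside the points and replicate numbers as labels. Nuclear shares lie between 0.890% and 1.03%, and the mitochondrial panels have the same 3 libraries on top.

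Gene by gene, the mitochondrial transcripts went up and down together across libraries. For 8 of the 8 tested mitochondrial members and for mt-Rnr1 and mt-Rnr2, the 3 highest libraries were heterozygous replicates 2 and 4 and wild-type replicate 1. Homozygous replicate 1 was the lowest library for 6 of the 8 members, and heterozygous replicate 2 the highest for 5. In mt-Cytb, for example, homozygous libraries had 724, 960, 1030 and 1168 CPM, heterozygous libraries had 910, 1456 and 1413 CPM and wild-type libraries had 1439, 1084 and 981 CPM. The ratio of the highest to the lowest library was between 1.89 and 3.41 over the 8 members. These libraries were named for their values and are not groups of the study. Of the 3 highest libraries, heterozygous replicate 2 held 32326603 counts, wild-type replicate 1 held 28668839 and heterozygous replicate 4, the smallest library, held 22986972. Homozygous replicate 1 held 27358042 counts. The part of library size in these values was not tested.

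**Figure D4:**
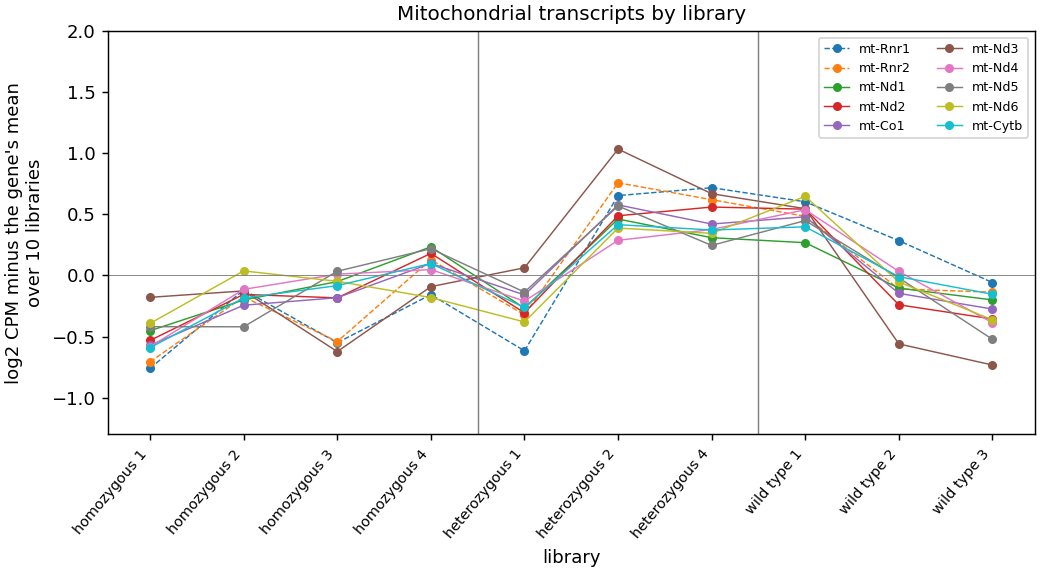
Log2 CPM of the 8 tested mitochondrial members (solid lines) and the 2 mitochondrial ribosomal RNAs (dashed) in each library, minus the gene's own mean over the 10 libraries. Heterozygous replicates 2 and 4 and wild-type replicate 1 are the 3 highest libraries for all 10 transcripts.

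Between homozygous and wild-type macrophages no respiratory chain gene passed the test. With edgeR's quasi-likelihood test and p-values adjusted by Benjamini-Hochberg over 14023 genes, 0 of 89 nuclear and 0 of 8 mitochondrial members were called, where 0.0642% of all genes were. At an unadjusted p under 0.05 there were 2 nuclear and 0 mitochondrial members, against 7.52% of all genes. DESeq2 also called 0 members where it called 2.19% of all genes, with 2 nuclear and 0 mitochondrial members at an unadjusted p under 0.05 against 9.54% of all genes. The median log2 fold change was 0.06 over the nuclear members, of which 57 were above 0 and 32 below, and 0.02 over all genes tested, of which 51.1% were above 0.

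The nuclear members with the smallest p included opposite directions within complex IV. Cox7a2, a small subunit, was at 103, 128, 106 and 116 CPM in homozygous and 92.5, 91.5 and 87.1 CPM in wild-type libraries. Its values did not overlap, and the log2 fold change was 0.33 (SE 0.14, adjusted p = 0.654 by edgeR). Cox5a, a matrix-side subunit, was at 50.3, 59.9, 62.2 and 52.2 CPM in homozygous and 93.7, 68.7 and 76.0 CPM in wild-type libraries. Here too the values did not overlap, with the homozygous ones below, and the log2 fold change was -0.50 (SE 0.17, adjusted p = 0.590 by edgeR).

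In all, 6 of 89 nuclear members, or 6.74%, had values that did not overlap between homozygous and wild-type libraries, against 7.97% of all genes. The 4 members with higher homozygous values were Cox7a2, the assembly factor Ndufaf8 (log2 fold change 0.50) and the complex I accessory subunits Ndufb11 (0.28) and Ndufa2 (0.24), and the 2 with lower ones were Cox5a and Ndufb1 (-0.17). Of all genes, 4.4% were separate with higher and 3.57% with lower homozygous values. The remaining nuclear members ranked by p were Atp5k, a small membrane subunit of ATP synthase, at 0.46 on the positive side, and Ndufs4 (-0.36), Atp5a1 (-0.14) and Atp5l (-1.04) on the negative side. Atp5l rests on wild-type replicate 1, at 27.7 CPM against 2.57 to 9.77 CPM in the other 9 libraries, and its log2 fold change was 0.63 without that library.

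The fitted values of the mitochondrial members lay below wild type, with a 95% interval that included 0 for each of the 8. Their log2 fold changes between homozygous and wild-type libraries ran from -0.28 to -0.10 with a median of -0.22, and 8 of 8 were below 0, but the smallest adjusted p by edgeR was 0.955 and no member's values were separate. The values for mt-Co1 were 634, 796, 831 and 1009 CPM in homozygous and 1315, 852 and 779 CPM in wild-type libraries, which overlap. Without wild-type replicate 1 the median became 0.07, and over all genes 0.06. The ribosomal RNA mt-Rnr1 was at 41.3, 64.5, 47.8 and 62.8 CPM in homozygous and 106, 85.3 and 67.2 CPM in wild-type libraries, without overlap (log2 fold change -0.67, SE 0.32, adjusted p = 0.689 by edgeR).

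Between heterozygous and wild-type macrophages 0 of 89 nuclear and 0 of 8 mitochondrial members were called by edgeR, as were 0% of all 14023 genes. At an unadjusted p under 0.05 there were 2 nuclear members, where 5.82% of all genes reached that level, and 0 mitochondrial ones. DESeq2 also called 0 members where it called 1.72% of all genes, with 3 nuclear and 0 mitochondrial members at an unadjusted p under 0.05 against 8.01% of all genes. The nuclear median was 0.07, with 52 members above 0 and 37 below, where 50.7% of all genes were above 0.

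The complex I accessory subunit Ndufb7 had the smallest p. It was at 111, 112 and 107 CPM in heterozygous and 63.4, 76.5 and 101 CPM in wild-type libraries, with 106, 93.7, 101 and 91.2 CPM in homozygous ones. The heterozygous values were the highest of all, and the log2 fold change to wild type was 0.45 (SE 0.18, adjusted p = 0.791 by edgeR). Cox7a2 was at 114, 123 and 102 CPM in heterozygous libraries, again above every wild-type value (log2 fold change 0.33, SE 0.15, adjusted p = 0.791 by edgeR). This comparison and the previous one share their wild-type libraries.

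Values that did not overlap were found for 10 of 89 nuclear members, or 11.2%, against 9.6% of all genes. The 7 with higher heterozygous values were Ndufb7, Cox7a2, Ndufa13, Atp5k, Ndufb5, Ndufb3 and Ndufb8, of which 5 belong to complex I. The 3 with lower ones were Cox5a, Ndufs6 and Ndufb1, of which 2 belong to complex I. That complex held 37 of the 89 tested nuclear members. Of all genes, 5.43% were separate with higher and 4.16% with lower heterozygous values. Of the others with small p, Ndufa11 had a log2 fold change of 0.52 and Ndufb11 of 0.28, while Atp5o was at -0.39, Sdhb at -0.26 and Atp5a1 at -0.23. Ndufa11, a membrane-arm subunit of complex I, rested on heterozygous replicate 4, at 118 CPM against 52.6 to 77.0 CPM in the other libraries, and its log2 fold change was 0.18 without it.

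The mitochondrial members had log2 fold changes of 0.02 to 0.77 between heterozygous and wild-type libraries, with a median of 0.21 and 8 of 8 above 0. Without heterozygous replicate 2 the median became 0.05, without wild-type replicate 1 it became 0.43, and mt-Nd4, mt-Nd6 and mt-Cytb each turned below 0 when 1 of several libraries was left out or the replicate number was a block. No member's values were separate, and the adjusted p by edgeR was 1 for each. The largest value was that of mt-Nd3, at 2.92, 5.73 and 4.45 CPM in heterozygous and 4.08, 1.90 and 1.68 CPM in wild-type libraries (SE 1.04). Its counts are the lowest of the tested mitochondrial members, and its 95% interval ran from -1.53 to 3.08.

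Between homozygous and heterozygous macrophages edgeR called 0 of 89 nuclear and 0 of 8 mitochondrial members, where 0.0214% of all genes were called. At an unadjusted p under 0.05 there were 0 nuclear members and 1 mitochondrial member, against 4.86% of all genes. DESeq2 gave the same counts of members, where it called 0.899% of all genes and had 6.23% at an unadjusted p under 0.05. The nuclear median was 0.02, with 51 members above 0 and 38 below, where 50.9% of all genes were above 0.

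The mitochondrial median was -0.37 in this comparison, with 0 of 8 members above 0 and a range of -0.88 to -0.29. The member past the unadjusted threshold was mt-Co1, at 634, 796, 831 and 1009 CPM in homozygous and 844, 1407 and 1262 CPM in heterozygous libraries (log2 fold change -0.52, SE 0.23, adjusted p = 1 by edgeR). Heterozygous replicate 1 fell within the homozygous range. Only mt-Nd3 had values that did not overlap, at 2.47, 2.56, 1.82 and 2.62 CPM in homozygous libraries against 2.92 to 5.73 CPM in heterozygous ones. The log2 fold changes of the ribosomal RNAs were -0.71 for mt-Rnr2 and -0.74 for mt-Rnr1, with adjusted p = 1 for both by edgeR. The same 4 homozygous libraries had lower sums of microglial markers, at 3049 to 4403 CPM against 5171 to 7522 CPM in heterozygous libraries, and the neutrophil, monocyte, T and NK cell and astrocyte sums also separate these genotypes as given above. The part of this in the mitochondrial values was not tested.

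Among nuclear members, 7 of 89, or 7.87%, did not overlap between homozygous and heterozygous libraries, against 7.47% of all genes. In all 7 the homozygous values were lower, namely Ndufb3, Atp5e, Ndufb5, Cox5a, Ndufs8, Ndufb7 and Ndufaf4, while 3.72% of all genes were separate in that direction and 3.75% in the other. Those named by p had log2 fold changes of -0.48 (Ndufa11), -0.31 (Ndufb3), -0.24 (Ndufb5 and Atp5e) and -0.22 (Atp5c1) on the negative side, that of Ndufa11 being -0.14 without heterozygous replicate 4. On the positive side, beside Cox6a2, were the complex II membrane anchor Sdhc (0.45), Sdhb (0.31), Ndufs6 (0.27) and Uqcrb (0.22). The smallest adjusted p of any nuclear member was 1.

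**Figure D5:**
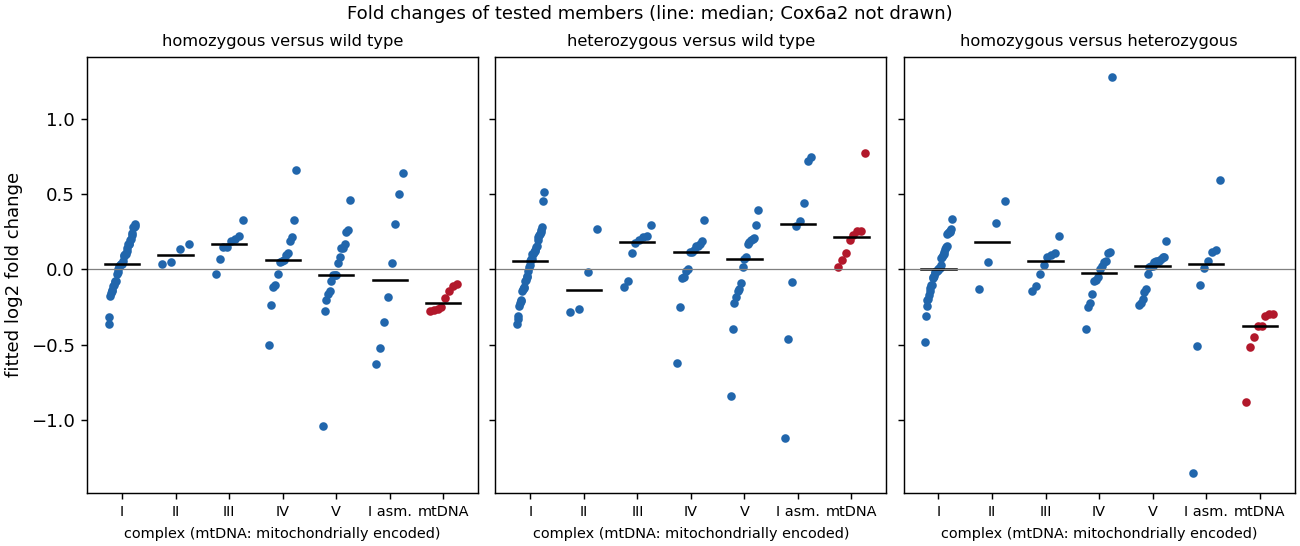
Fitted log2 fold change of each tested member by complex, with nuclear members in blue, mitochondrial members in red and medians as lines, for homozygous versus wild-type, heterozygous versus wild-type and homozygous versus heterozygous libraries. Cox6a2 is not drawn in any panel. Its fold rests on the floor of a 0 count in both comparisons with heterozygous libraries. The log2 fold change of Cox6a2 between homozygous and wild-type libraries was 0.19 (SE 2.42). Nuclear medians over all complexes are 0.06, 0.07 and 0.02, and mitochondrial medians -0.22, 0.21 and -0.37.

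The width of the intervals sets what these comparisons could show. Over nuclear members, log2 fold changes had a median SE of 0.18 for homozygous versus wild type, 0.19 for heterozygous versus wild type and 0.18 for homozygous versus heterozygous, against 0.61, 0.65 and 0.61 over all genes. The 95% interval lay wholly within a log2 fold change of 1 in either direction for 76, 73 and 75 of the 89 nuclear members in those comparisons, and for 26.5%, 24.6% and 27.5% of all genes. As shares these were 85.4%, 82.0% and 84.3% of the nuclear members, against 78.9%, 77.0% and 81.0% of the 3524 tested genes above 50 CPM. It held for 7, 7 and 5 of the 8 mitochondrial members, and for 0, 0 and 1 of the 8 complex I assembly factors.

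By complex, the medians between homozygous and wild-type libraries were 0.04 in complex I, 0.10 in complex II, 0.17 in complex III, 0.06 in complex IV, -0.03 in complex V and -0.07 among the assembly factors. Between heterozygous and wild-type libraries they were 0.05 in complex I, -0.14 in complex II, 0.19 in complex III, 0.11 in complex IV, 0.07 in complex V and 0.30 among the assembly factors. In complex III 7 of 8 members were above 0 in the first comparison and 6 of 8 in the second, the most abundant of them, Uqcrc1, being at -0.03 and -0.12. Summed complex III subunits were at 938 ± 82.6 CPM in the 4 homozygous libraries, 905 ± 127 CPM in the 3 heterozygous ones and 863 ± 39.8 CPM in the 3 wild-type ones (mean ± SD), and the 3 groups overlapped.

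Nuclear respiratory chain genes are known in mammals to share promoter elements, among them sites for NRF1, for ETS factors such as GABPA and for YY1. Promoters of 75 of the 95 nuclear members, 80 in all, were matched in RefSeq (GRCm38.p6), each running from 250 bases before to 50 bases after a gene start. The NRF1 motif, searched on both strands and seen in capitals in the promoters that follow, stood in 20 of the 80, or 25%, against 6.4% of the 21263 promoters of protein-coding genes. The YY1 motif stood in 7 (8.8%, against 1.9%) and the ETS letters ACCGGAAGT in 1 (1.2%, against 1.4%). Any of these stood in 27, or 33.8%, against 9.3%. NRF1 letters were found in 8 of 35 complex I promoters, 2 of 3 of complex II, 1 of 5 of complex III, 1 of 12 of complex IV, 6 of 18 of complex V and 2 of 7 of the assembly factors. A match is a run of letters and not a measured site, and its lack says only that these letters are not in the window.

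The promoters below, of abundant subunits of complexes II, III and IV, hold more than 1 match to the NRF1 letters, shown in capitals. They are Sdha at chr13:74350191-74350490 (minus strand), Uqcrc1 at chr9:108936398-108936697 (plus strand) and Cox6a1 at chr5:115348909-115349208 (minus strand), on GRCm38.p6 from RefSeq.
Sdha: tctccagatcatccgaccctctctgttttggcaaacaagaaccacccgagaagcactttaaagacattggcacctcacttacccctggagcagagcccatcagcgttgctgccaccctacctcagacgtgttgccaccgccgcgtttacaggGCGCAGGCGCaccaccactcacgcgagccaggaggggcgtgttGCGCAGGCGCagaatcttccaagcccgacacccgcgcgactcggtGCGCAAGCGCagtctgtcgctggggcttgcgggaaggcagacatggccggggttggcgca
Uqcrc1: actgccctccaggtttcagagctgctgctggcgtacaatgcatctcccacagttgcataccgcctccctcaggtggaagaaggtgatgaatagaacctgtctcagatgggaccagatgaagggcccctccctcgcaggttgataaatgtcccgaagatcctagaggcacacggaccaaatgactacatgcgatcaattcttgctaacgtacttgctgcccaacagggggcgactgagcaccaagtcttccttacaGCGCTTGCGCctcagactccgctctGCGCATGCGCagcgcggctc
Cox6a1: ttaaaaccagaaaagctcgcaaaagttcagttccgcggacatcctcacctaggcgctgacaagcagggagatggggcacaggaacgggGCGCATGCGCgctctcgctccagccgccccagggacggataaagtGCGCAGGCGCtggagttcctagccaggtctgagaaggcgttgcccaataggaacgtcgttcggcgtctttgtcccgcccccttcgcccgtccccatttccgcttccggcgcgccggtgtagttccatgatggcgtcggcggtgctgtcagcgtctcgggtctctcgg

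Sdha held 3 matches, Uqcrc1 2 and Cox6a1 2. Their transcripts were at overlapping levels in the 3 genotypes, with log2 fold changes between homozygous and wild-type libraries of 0.04 (SE 0.14), -0.03 (SE 0.16) and 0.05 (SE 0.11), adjusted p = 0.999 each by edgeR. Of the factors themselves, Nrf1 was at a mean of 38.6 ± 10.8 CPM (SD, n = 4 homozygous mice), against 50.6 ± 12.3 CPM in heterozygous mice and 40.8 ± 33.6 CPM in wild-type mice (n = 3 each). Gabpa was at 52.3 ± 19.1 CPM in the 4 homozygous libraries, 40.3 ± 15.4 CPM in the 3 heterozygous ones and 50.5 ± 16.4 CPM in the 3 wild-type ones (mean ± SD). The coactivator Ppargc1a, a known driver of mitochondrial biogenesis in muscle and fat, had 0 counts in 7 of the 10 libraries, the wild-type ones included. Over the 10 tested regulators of respiratory genes, 0 were called in any comparison by edgeR.

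Genes around the respiratory chain were read from 12 lists of related pathways, of which 141 genes were tested. By edgeR 0 of them were called in any of the 3 comparisons. At an unadjusted p under 0.05 there were 9 between homozygous and wild-type libraries (6.38%), 3 between heterozygous and wild-type libraries (2.13%) and 3 between homozygous and heterozygous libraries (2.13%), so these shares were below those of all genes given above. Among electron carriers and other donors to ubiquinone, Sqor, a sulphide oxidase, was at a mean of 127 ± 21.5 CPM (SD, n = 4 homozygous mice), against 108 ± 23.5 CPM in heterozygous mice and 110 ± 29.4 CPM in wild-type mice (n = 3 each). The electron-transfer flavoprotein subunit Etfa was at 58.5 ± 10.4 CPM in the 4 homozygous libraries, 66.0 ± 17.2 CPM in the 3 heterozygous ones and 59.9 ± 7.08 CPM in the 3 wild-type ones (mean ± SD). Both genes had group means within 1 SD of each other. The most abundant genes of inner membrane exchange were Ucp2, an uncoupling protein family carrier, and Slc25a5, an exchanger of ADP and ATP. Ucp2 was at a mean of 823 ± 103 CPM (SD, n = 4 homozygous mice), against 775 ± 113 CPM in heterozygous mice and 923 ± 69.1 CPM in wild-type mice (n = 3 each). Slc25a5 was at 405 ± 27.8 CPM in the 4 homozygous libraries, 384 ± 26.8 CPM in the 3 heterozygous ones and 365 ± 44.9 CPM in the 3 wild-type ones (mean ± SD).

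In the tricarboxylic acid cycle, which feeds the chain with NADH and succinate, 0 of 14 genes were called. The median log2 fold change was -0.14 between homozygous and wild-type libraries, with 6 genes above 0 and 8 below. Between heterozygous and wild-type libraries it was -0.19, with 2 above and 12 below. Over all genes these medians were 0.02 and 0.01. Summed, the cycle was at 1468 to 1582 CPM in homozygous, 1288 to 1359 CPM in heterozygous and 1400 to 1591 CPM in wild-type libraries. The heterozygous sums lay below all others, which was not tested. The most abundant of the 14 listed genes, the NADP-dependent isocitrate dehydrogenase Idh2, was at a mean of 351 ± 24.3 CPM (SD, n = 4 homozygous mice), against 246 ± 31.6 CPM in heterozygous mice and 228 ± 34.5 CPM in wild-type mice (n = 3 each). Homozygous values of 330.9 to 380.5 CPM lay above all heterozygous values (224 to 283 CPM) and all wild-type values (200 to 266 CPM). The log2 fold change to wild type was 0.63 (SE 0.13, adjusted p = 0.268 by edgeR) and that to heterozygous libraries 0.51 (SE 0.13, adjusted p = 0.939 by edgeR), so neither was called. Ogdh, a subunit of the oxoglutarate dehydrogenase complex, was at 171 ± 28.7 CPM in the 4 homozygous libraries, 145 ± 15.4 CPM in the 3 heterozygous ones and 193 ± 21.0 CPM in the 3 wild-type ones (mean ± SD).

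In glycolysis, the cytosolic route to ATP, 0 of 16 genes were called and the median log2 fold change between homozygous and wild-type libraries was -0.12, with 2 genes above 0 and 14 below. Over all genes that median was 0.02. The aldolase Aldoa was its most abundant gene, at a mean of 353 ± 67.9 CPM (SD, n = 4 homozygous mice), against 372 ± 32.9 CPM in heterozygous mice and 379.1 ± 87.1 CPM in wild-type mice (n = 3 each). The enolase Eno1 followed at 299 ± 40.1 CPM in the 4 homozygous libraries, 303 ± 12.2 CPM in the 3 heterozygous ones and 330 ± 40.2 CPM in the 3 wild-type ones (mean ± SD). Their groups overlapped.

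Factors that build complexes III and IV and further ones for complex I were also tested. Higd2a, the most abundant of the complex IV assembly and copper factors, was at a mean of 145 ± 5.42 CPM (SD, n = 4 homozygous mice), against 150 ± 27.5 CPM in heterozygous mice and 126 ± 9.40 CPM in wild-type mice (n = 3 each). Coa5, another of them, was at 98.7 ± 21.3 CPM in the 4 homozygous libraries, 87.7 ± 19.1 CPM in the 3 heterozygous ones and 64.9 ± 41.5 CPM in the 3 wild-type ones (mean ± SD). Summed, the complex IV assembly and copper factors were at 763 to 799 CPM in homozygous, 749 to 833 CPM in heterozygous and 675 to 716 CPM in wild-type libraries. Sums of both allele carriers lay above wild type, which was not tested, and 0 of the 24 tested factors were called in any comparison. Cyc1 is the cytochrome c1 of complex III, which the member rule does not reach. It was at a mean of 101 ± 15 CPM (SD, n = 4 homozygous mice), against 99.7 ± 4.60 CPM in heterozygous mice and 96.4 ± 17.8 CPM in wild-type mice (n = 3 each). The complex III assembly factor Uqcc2 was at 39.6 ± 7.95 CPM in the 4 homozygous libraries, 46.7 ± 12.3 CPM in the 3 heterozygous ones and 39.4 ± 9.57 CPM in the 3 wild-type ones (mean ± SD). Of the complex I assembly factors outside the member rule, Dmac1 and Tmem70 were the most abundant. Dmac1 was at a mean of 76.5 ± 16.2 CPM (SD, n = 4 homozygous mice), against 87.0 ± 9.37 CPM in heterozygous mice and 70.0 ± 14.8 CPM in wild-type mice (n = 3 each). Tmem70 was at 55.8 ± 11.9 CPM in the 4 homozygous libraries, 56.0 ± 13.5 CPM in the 3 heterozygous ones and 56.6 ± 15.5 CPM in the 3 wild-type ones (mean ± SD).

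The assembly factors of complexes II and V were of lower abundance. Sdhaf2, which inserts the flavin of Sdha, was at a mean of 43.2 ± 7.19 CPM (SD, n = 4 homozygous mice), against 44.7 ± 28.6 CPM in heterozygous mice and 47.1 ± 20.1 CPM in wild-type mice (n = 3 each). Sdhaf4 was at 28.9 ± 9.05 CPM in the 4 homozygous libraries, 21.1 ± 3.49 CPM in the 3 heterozygous ones and 33.4 ± 13.9 CPM in the 3 wild-type ones (mean ± SD). Of the ATP synthase factors, Tmem242 and Atpaf2 were the most abundant. Tmem242 was at a mean of 30.6 ± 10.1 CPM (SD, n = 4 homozygous mice), against 21.3 ± 7.08 CPM in heterozygous mice and 26.6 ± 4.86 CPM in wild-type mice (n = 3 each). Atpaf2 was at 21.3 ± 9.54 CPM in the 4 homozygous libraries, 23.1 ± 7.08 CPM in the 3 heterozygous ones and 9.15 ± 6.14 CPM in the 3 wild-type ones (mean ± SD). Polg is the mitochondrial DNA polymerase, and Lonp1 a protease of the matrix. Polg was at a mean of 60.0 ± 8.02 CPM (SD, n = 4 homozygous mice), against 62.8 ± 10.7 CPM in heterozygous mice and 56.9 ± 44.0 CPM in wild-type mice (n = 3 each). Lonp1 was at 43.0 ± 14.3 CPM in the 4 homozygous libraries, 52.1 ± 6.15 CPM in the 3 heterozygous ones and 39.0 ± 19.3 CPM in the 3 wild-type ones (mean ± SD). Immt and Micos10 shape the cristae, the folds that hold the chain. Immt was at a mean of 104 ± 8.79 CPM (SD, n = 4 homozygous mice), against 95.6 ± 22.4 CPM in heterozygous mice and 120 ± 37.1 CPM in wild-type mice (n = 3 each). Micos10 was at 108 ± 13.1 CPM in the 4 homozygous libraries, 107 ± 19.6 CPM in the 3 heterozygous ones and 96.9 ± 8.85 CPM in the 3 wild-type ones (mean ± SD). Wild-type libraries had the widest spread for Polg, Lonp1, Coa5 and Immt.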

How the data were processed

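cDNA was made from 500 pg of RNA per mouse with a kit that does not mark the strand, and libraries with Nextera XT, per the labels' protocols. Per the submitters' processing notes, the authors used bcl2fastq 2.20, STAR 2.7.8a and featureCounts 2.0.2 and deposited raw counts for each gene symbol in 10 libraries. Not given in the sources used here are the sort gate, genome build, annotation, strand setting and read length. Groups follow the genotype label, and all libraries carry 1 batch label. Each library is an individual mouse, per the series' design text.

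Genes were filtered with filterByExpr (minimum count 10, minimum total 15), which kept 14023 genes with 99.9% of the counts. Counts were scaled by trimmed means of M-values and tested with edgeR 4.0.16 (quasi-likelihood, robust, all 10 libraries, genotype as the only term; R 4.3.3). P-values were adjusted by Benjamini-Hochberg over all genes, and genes were called at 0.05. The SE of a log2 fold change was taken from its F statistic (the change over the root of F). The code was tested on simulated data. Alternatives were DESeq2 1.42.0, its size factors in edgeR, limma-voom (limma 3.58.1), no filter, a stricter filter (mean count of 10 and 1 CPM in 3 libraries), no robust estimation, library sizes without mitochondrial genes, the replicate block, the title letter as a covariate, only the genotypes compared, and leaving out each library.

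Of the 108 members, 107 matched GENCODE vM21 or its RefSeq synonyms, which gave lengths and sequences. Of the nuclear members, 52 shared a 50-base window with another gene and 3 shared over 50% (Ndufaf2, Ndufb4c and Cox6c2), so their counts are uncertain. The 0-count floor is 3 counts and, like the Wilson intervals of the shares, covers counting error only. Genes were named by rule: all mitochondrial members, the 3 most abundant nuclear members of each complex, the 5 with the smallest p in each direction per comparison, isoform pairs, the 3 most abundant assembly factors and the 2 most abundant genes of each pathway list; others were chosen after their values were seen. Members and lists were chosen with earlier results of these data known.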

Additional observations from a re-analysis of the deposited data

Results flagged for a closer look

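In the 4 homozygous libraries, 103 values were examined for a library standing far from the rest, and 3 did so by Dixon's criterion, all in homozygous replicate 2; chance alone flags about 1 in 20 groups. Ndufs3, a core subunit of complex I, was at 86.3 CPM there, against 39.8 to 44.7 CPM in the other homozygous libraries. Ndufv3, an accessory subunit of its NADH-binding module, was at 64.7 CPM, against 86.6 to 89.6 CPM. Atp5c1, the central stalk of ATP synthase, was at 218 CPM, against 189 to 193 CPM.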

How the results depend on the processing

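The count of called members was 0 in each of the 3 comparisons, nuclear and mitochondrial, under every alternative run, although DESeq2 called 294, 236 and 123 of all genes in homozygous versus wild type, heterozygous versus wild type and homozygous versus heterozygous, where edgeR called 9, 0 and 3. Over all genes the stricter filter gave 12 calls and the title letter 17 between homozygous and wild-type libraries. Under the alternatives other than leaving out a library, median fold changes and summed shares moved by less than the spread between mice. For leaving out a library that yardstick cannot decide, since dropping 1 value moves a mean by less than its group's SD. There the homozygous versus wild-type mitochondrial median changed sign, from -0.22 to 0.0651. Replicate numbers gave no sign of pairing the mice: over 8 same-numbered pairs the correlation of deviations ran from -0.0118 to 0.0347. These values cannot show whether same-numbered mice shared a step of the work. With the replicate block 0 members were called, and heterozygous versus wild-type log2 fold changes turned to -0.0793 for mt-Nd4, -0.0909 for mt-Nd6 and -0.0393 for mt-Cytb. With DESeq2 and with its size factors mt-Nd6 was at -0.00408 in that comparison, and with limma-voom mt-Nd3 was at 0.00731 in homozygous versus wild type. The cause was not tested for any of these.

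Leaving out each library in turn, homozygous versus wild-type log2 fold changes ran from -0.229 to 0.0611 for mt-Nd1, -0.353 to 0.152 for mt-Nd2, -0.405 to 0.00978 for mt-Co1, -0.335 to 0.410 for mt-Nd3, -0.445 to 0.0282 for mt-Nd4, -0.351 to 0.135 for mt-Nd5, -0.475 to 0.0691 for mt-Nd6 and -1.52 to 0.628 for Atp5l, each highest value being without wild-type replicate 1. Heterozygous versus wild type, they ran from -0.133 to 0.331 for mt-Nd4, -0.180 to 0.354 for mt-Nd6 and -0.00812 to 0.287 for mt-Cytb. For Cox6a2 they ran from -8.10 to 0, the 0 being without wild-type replicate 3, when no counts are left in either group. Medians ran from -0.364 to 0.0651 (homozygous versus wild type), 0.0456 to 0.427 (heterozygous versus wild type) and -0.541 to -0.254 (homozygous versus heterozygous) over mitochondrial members, and from 0.0248 to 0.121, 0.0474 to 0.0812 and -0.00841 to 0.0502 over nuclear ones. Of 54 single-gene values named, 32 moved by over 1.5 times when some library was left out. Depth limits mt-Nd3 most among the tested mitochondrial members, at 54 to 186 counts per library and an SE of 0.96 to 1.04 in the 3 comparisons.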
